A study of Saccharomyces cerevisiae with 2 samples.

Results

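Proteins made at the endoplasmic reticulum (ER) travel to the Golgi in COPII-coated vesicles, and escaped ER proteins and used machinery return in COPI-coated vesicles. A small GTPase starts each coat, cargo receptors of the p24 and ERV groups link cargo to the coats, and the Rab GTPase Ypt1 with its tethers and SNARE proteins joins the vesicle to the Golgi membrane. In budding yeast much of this machinery is needed for growth, and the sec mutants that defined it were isolated there. The 29 genes described here were chosen by function. Their measured values were no part of the rule, though earlier results of these data were known when it was written. They comprise 7 subunits of the COPI coat, 10 genes of the COPII coat with the GTPases SAR1, ARF1 and ARF2, 7 cargo receptors, and 5 genes for the SNAREs BET1, BOS1, SEC22 and SED5 with YPT1. The table of the series lists 4685 genes, and 28 of the 29 are in it. ARF2, the second ARF gene, is not among the listed genes.

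Ribosome footprints, the mRNA pieces shielded by translating ribosomes, were sequenced from Saccharomyces cerevisiae BY4741 in mid-log growth in YPD, a rich glucose medium. RNA-seq was done on cytoplasmically enriched RNA of the same strain, freed of ribosomal RNA and broken by alkaline hydrolysis. There was 1 footprint library and 1 RNA library with no treatment, so no value has a replicate error, no gene-to-gene difference could be set against replicates, and no p-value is given. The authors deposited 1 value per gene and library in RPKM, reads scaled to gene length and library size. The sequencing depth is unknown, so no counting interval is given, and each level is an average over the culture, in which fewer cells with an mRNA and less mRNA per cell cannot be told apart.

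The listed genes fit the labelled strain, a haploid of mating type a with LEU2, URA3 and MET17 deleted: none of those 3 genes was listed, 6 of 7 genes specific to mating type a were listed with 78.8 to 1769 RPKM of footprints, and of 4 genes specific to mating type alpha SAG1 was listed, with 1.14 RPKM. Ribosome density below is log2 of footprint RPKM over RNA RPKM, set to 0 at the median of the 4642 genes whose mean of both values was at least 5 RPKM. That median gene had a footprint to RNA ratio of 0.821. All 28 listed members passed this filter.

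The transport genes were well expressed and were translated close to the average for yeast mRNAs. Their median level was 186 RPKM of footprints and 208 RPKM of RNA, against 39.1 RPKM of footprints and 49.4 RPKM of RNA over the other analysed genes. The footprint levels ran from 27.6 RPKM for SFB2 to 1031 RPKM for ARF1, a 37.4-fold range, and the RNA levels from 47.7 RPKM for SEC12 to 1010 RPKM for ARF1, a 21.2-fold range. Most of the members therefore lay in the upper part of the distribution: the median member had more footprints than 83.4% of the analysed genes. Together the 28 genes took 0.900% of the listed footprints and 1.08% of the listed RNA, by RPKM times coding length.

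**Figure D1:**
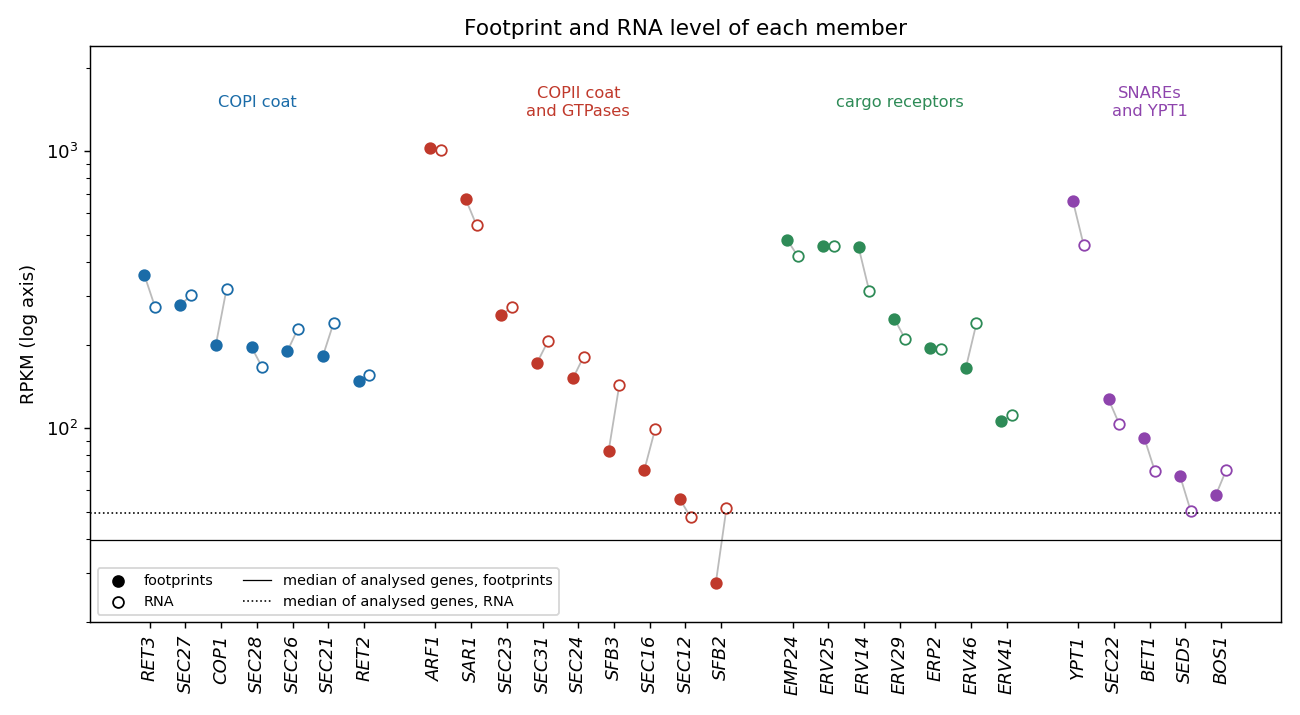
Footprint level (filled, left) and RNA level (open, right) of the 28 listed members in RPKM on a log axis, by group, each point 1 library. ARF1 is highest at 1031 RPKM of footprints and SFB2 lowest at 27.6 RPKM, the only member under the footprint median of the analysed genes (39.4 RPKM).

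Density varied far less than level. It ran from -0.62 for SFB2 to 0.81 for the receptor gene ERV14, so the footprint to RNA ratio spanned 2.70-fold. No member was more than 2-fold above the median gene, as 6.79% of the analysed genes were, and none was more than 2-fold below it, as 13.1% were. Among the 2288 analysed genes whose RNA level fell within the range of the members, a range set after the values were seen, 9.88% were more than 2-fold above and 4.41% more than 2-fold below. All 28 lay within 2-fold, as did 80.2% of the analysed genes and 85.7% of those in the members' RNA range. The SD over genes was 0.40 for the members, 0.73 for the other genes in that RNA range and 0.96 for the other analysed genes. Both sets of other genes held densities down to -10.4, and such far values widen an SD. The median density of the members was 0.25, which is 1.19 times the median gene, and 21 of 28 lay above it, where 50.0% of the analysed genes do by construction. In the RNA range of the members 67.8% did, and the median density of the other genes there was 0.31. The members had more RNA than those genes, with a median of 208 RPKM against 94.2 RPKM, and density rose with RNA level over all analysed genes (Spearman rho 0.53). Over the 28 members alone that rho was 0.15.

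**Figure D2:**
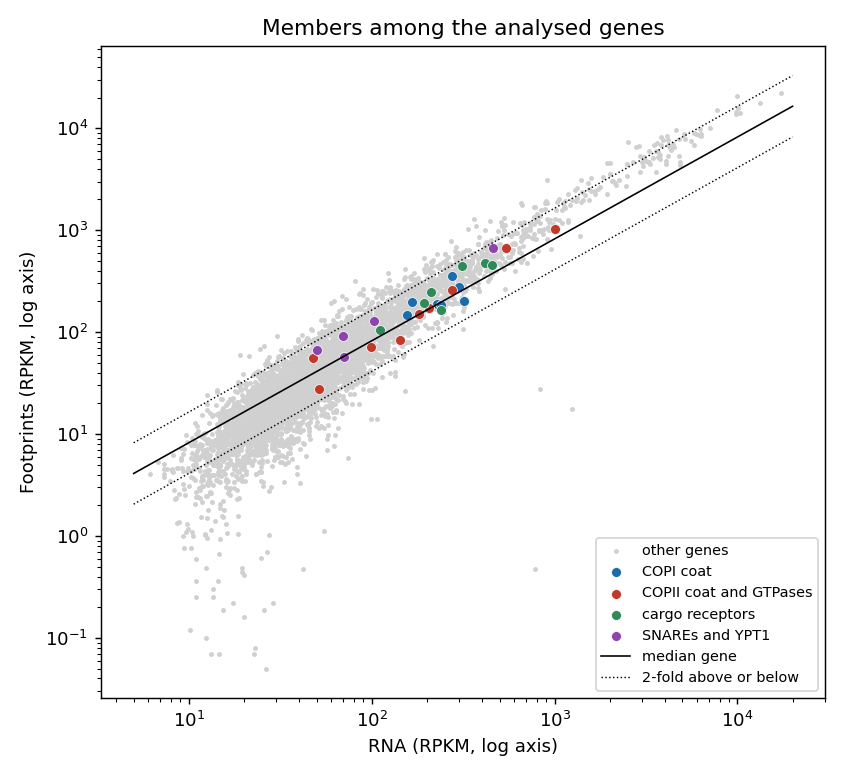
Footprint against RNA level of the 4642 analysed genes in RPKM on log axes, with the 28 members in colour, the ratio of the median gene as a solid line and 2-fold either side as dotted lines. The members all lie between the dotted lines, and their footprint to RNA ratios span 2.70-fold while their footprint levels span 37.4-fold.

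The COPI coat is a heptamer that holds each subunit in equal copies, so its genes are set side by side by their footprint level per unit length, which measures relative synthesis if ribosomes move at like speed. RET3 (YPL010W), the small zeta subunit, had 357 RPKM of footprints and 274 RPKM of RNA. SEC27 (YGL137W), the beta-prime subunit that reads dilysine retrieval signals, had 278 RPKM of footprints and 302 RPKM of RNA. COP1 (YDL145C), the alpha subunit with the same role, had 199.9 RPKM of footprints and 318 RPKM of RNA. SEC27 and COP1 thus had near-equal RNA, but COP1 had fewer footprints. SEC28 (YIL076W), the epsilon subunit that steadies alpha, had 196 RPKM of footprints and 166 RPKM of RNA. SEC26 (YDR238C), the beta subunit, had 189 RPKM of footprints and 229 RPKM of RNA. SEC21 (YNL287W), the gamma subunit, had 183 RPKM of footprints and 241 RPKM of RNA. COP1 and these 3 subunits had 183 to 199.9 RPKM of footprints and 166 to 318 RPKM of RNA. They were grouped after the values were seen, as neighbours in footprint level, so their narrow footprint range follows from the choice. RET2 (YFR051C), the delta subunit, was lowest with 149 RPKM of footprints and 156 RPKM of RNA.

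Over the 7 subunits the footprint level had a 2.41-fold range and an SD of 0.42 (log2), and the RNA level a 2.04-fold range and an SD of 0.40. RET3 carried much of the footprint spread. Without it the SD of the other 6 subunits was 0.29 for footprints and 0.43 for RNA. RET3 was left out after the values were seen, because it had the most footprints. That choice favours a lower footprint SD, and no RNA extreme was left out to match. Density ran from -0.39 for COP1 through -0.11 for SEC21, 0.01 for SEC26, 0.17 for SEC27, 0.21 for RET2 and 0.53 for SEC28 to 0.67 for RET3. That is nearly the order of falling coding length, from 3606 nt for COP1 to 570 nt for RET3 (Spearman rho -0.96 across 7 genes, a description only). With codon adaptation, defined below, density had the same rho over these 7 genes (-0.96), and 0.07 over the 28 members. The coat took 0.326% of the listed footprints and 0.425% of the listed RNA.

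In the COPII coat, Sec23 and Sec24 form the inner layer, and Sec13 and Sec31 the outer cage. SEC23 (YPR181C), which activates the GTPase Sar1, had 256 RPKM of footprints and 275 RPKM of RNA. SEC24 (YIL109C), the main cargo adaptor, had 151 RPKM of footprints and 181 RPKM of RNA. SEC23 thus stood 1.69-fold above its partner in footprints and 1.51-fold in RNA. SFB3 (YHR098C, also LST1) and SFB2 (YNL049C, also ISS1) are relatives of SEC24 that bind Sec23 in its place. SFB3 had 82.9 RPKM of footprints and 143.6 RPKM of RNA, and SFB2 had 27.6 RPKM of footprints and 51.5 RPKM of RNA. Added up, SEC24, SFB3 and SFB2 had 262 RPKM of footprints, 1.02 times SEC23, and 377 RPKM of RNA, 1.37 times SEC23. The summed adaptors were thus level with SEC23 in footprints and above it in RNA, a sum formed after the values were seen. SFB2 and SFB3 had the lowest densities of the 28 members, at -0.62 and -0.51, against 0.02 for SEC24 and 0.18 for SEC23.

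SEC31 (YDL195W), the outer cage rod, had 173 RPKM of footprints and 206 RPKM of RNA, a density of 0.03. Its partner SEC13 (YLR208W), which also serves in the nuclear pore complex and is not one of the 29 genes, had 340 RPKM of footprints and 212 RPKM of RNA, a density of 0.96. The partners had near-equal RNA (SEC31 over SEC13, 0.970), but SEC31 had 0.508 times the footprints. Their coding lengths are 3822 nt for SEC31 and 894 nt for SEC13. After subtraction of the fit of density on coding length described below, the order turned, with SEC31 at 0.98 and SEC13 at 0.81. SEC16 (YPL085W), the large scaffold of ER exit sites, had 70.8 RPKM of footprints and 99.1 RPKM of RNA, a density of -0.20, and SEC23 had 3.62 times its footprints.

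**Figure D3:**
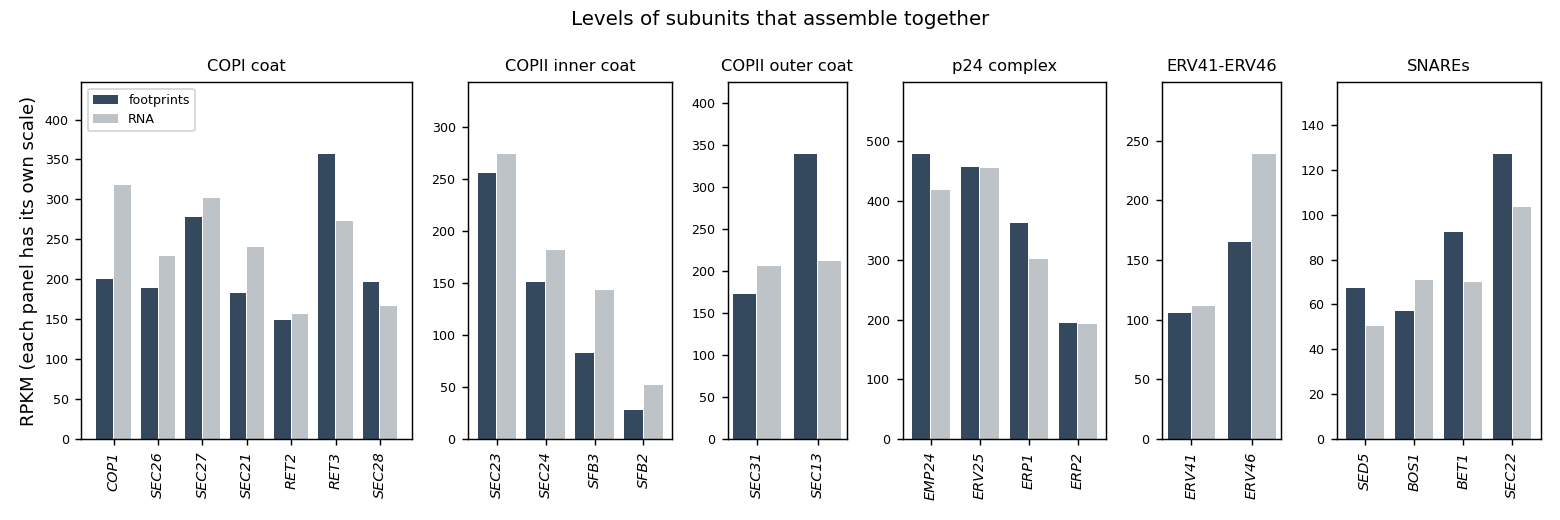
Footprint (dark, left) and RNA (light, right) levels in RPKM for genes whose products assemble together, each panel on its own linear scale from 0, with 1 library per assay. SEC31 and SEC13 have near-equal RNA but 173 and 340 RPKM of footprints, and their coding lengths are 3822 and 894 nt. By footprints, RET3 (357 RPKM) stands above the other COPI subunits.

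The mRNAs and footprints of the coat GTPases were more abundant than those of the coats they recruit. SAR1 (YPL218W), which starts COPII assembly, had 671 RPKM of footprints and 541 RPKM of RNA, 2.62 times the footprints of SEC23. SEC12 (YNR026C), the membrane-bound exchange factor that loads Sar1 with GTP, had 55.3 RPKM of footprints and 47.7 RPKM of RNA. SAR1 thus had 12.1 times the footprints and 11.3 times the RNA of its activator, a gap of like size in both libraries. Their densities were 0.60 for SAR1 and 0.50 for SEC12.

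ARF1 (YDL192W), the GTPase that recruits COPI, was the most abundant member in both libraries, at 1031 RPKM of footprints and 1010 RPKM of RNA, with a density of 0.31. Its copy ARF2 (YDL137W) encodes a protein that matches it at 96.1% of 181 residues, and the coding sequences match at 89.2% of 546 nt. Reads from stretches that the copies share cannot be assigned to either gene by sequence, and how the authors treated such reads is not given in the sources used here. Of the windows of 28 nt in ARF1, a length near that of a footprint, 5.01% also occurred in ARF2, and the longest identical stretch was 40 nt. The other 27 members shared no such window with another coding sequence, and none of the 29 overlapped another annotated gene. The stretch of 30 nt in which the copies differ most, nucleotides 514 to 543 of each coding sequence, shows how they can be told apart, with the 9 differing bases in capitals (both genes on chromosome IV).
ARF1: tggttaagTaacaGTttgaaAaaCTCaAcT
ARF2: tggttaagCaacaACttgaaGaaTCAaTcC

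The cargo receptors were mostly at high levels, with 106 to 479 RPKM of footprints and 112 to 455 RPKM of RNA. The p24 proteins Emp24, Erv25, Erp1 and Erp2 join in a complex that sorts proteins with a lipid (GPI) anchor. EMP24 (YGL200C) had 479 RPKM of footprints and 418 RPKM of RNA, and ERV25 (YML012W) had 456 RPKM of footprints and 455 RPKM of RNA. These 2 genes were within 1.05-fold of each other in footprints. ERP2 (YAL007C) had 195 RPKM of footprints and 193 RPKM of RNA, which was 0.407 times EMP24 in footprints. ERP1 (YAR002C-A), not one of the 29 genes, had 363 RPKM of footprints and 301 RPKM of RNA, 1.86 times the footprints of ERP2. The densities of EMP24 (0.48), ERP2 (0.30) and ERV25 (0.29) lay in a narrow band. ERP2 was the lowest of the 3 in both libraries, whereas EMP24 had 1.05 times the footprints but 0.919 times the RNA of ERV25.

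ERV14 (YGL054C), a receptor for many membrane proteins bound for the cell surface, had 450 RPKM of footprints and 312 RPKM of RNA, and its density of 0.81 was the highest of the 28, level with YPT1 to 2 decimals. ERV29 (YGR284C), the receptor for soluble cargo such as the alpha-factor precursor, had 249 RPKM of footprints and 211 RPKM of RNA, a density of 0.52. Erv41 and Erv46 form a complex that retrieves ER proteins lacking the usual signal. ERV46 (YAL042W) had 165 RPKM of footprints and 239 RPKM of RNA, and ERV41 (YML067C) had 106 RPKM of footprints and 112 RPKM of RNA. ERV46 thus had 2.14 times the RNA of ERV41 but 1.55 times its footprints. Its density of -0.25 was the lowest among the receptors and the only one below the median gene, against 0.21 for ERV41. ERV46 also had the lowest codon adaptation of the receptors (0.157, above 11.3% of the analysed genes). Codon adaptation compares a gene's codons with those of ribosomal protein genes, and its part in the low density was not tested. BET1 had still lower codon adaptation (0.134, above 3.36% of the analysed genes) and a density of 0.69.

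By its median of 92.3 RPKM of footprints and 70.9 RPKM of RNA, the fusion machinery was the least abundant of the 4 groups, though its GTPase was not scarce. SEC22 (YLR268W), a SNARE that also recycles to the ER, had 127 RPKM of footprints and 103.6 RPKM of RNA, and BET1 (YIL004C), another vesicle SNARE, had 92.3 RPKM of footprints and 69.8 RPKM of RNA. SED5 (YLR026C), the syntaxin of the early Golgi, had 67.4 RPKM of footprints and 50.4 RPKM of RNA, and BOS1 (YLR078C), which pairs with Sed5, had 57.2 RPKM of footprints and 70.9 RPKM of RNA. The 4 SNAREs, which contribute 1 helix each to the fusion bundle, spanned 2.22-fold in footprints and 2.06-fold in RNA. The order of their levels was not the same in both libraries, since BOS1 was the lowest in footprints and SED5 the lowest in RNA. YPT1 (YFL038C) stood well above them, with 663 RPKM of footprints and 460 RPKM of RNA, 9.83 times the footprints and 9.14 times the RNA of SED5. Densities were 0.81 for YPT1, 0.71 for SED5, 0.69 for BET1 and 0.58 for SEC22, with BOS1 apart at -0.02.

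Between groups, density was highest for the SNAREs with YPT1 and lowest for the COPII group. The median was 0.69 (-0.02 to 0.81) over the 5 SNARE and YPT1 genes and 0.30 (-0.25 to 0.81) over the 7 cargo receptors. It was 0.17 (-0.39 to 0.67) over the 7 COPI subunits and 0.03 (-0.62 to 0.60) over the 9 listed COPII and GTPase genes. All 4 ranges overlapped. Within the COPII group, the 6 coat and scaffold proteins had a median of -0.09, and SAR1, ARF1 and SEC12 ran from 0.31 to 0.60. Genes above the median gene numbered 4 of 5 for the SNAREs with YPT1, 6 of 7 for the receptors, 5 of 7 for COPI and 6 of 9 for the COPII group, set against the 50.0% of all analysed genes.

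Coding length moved with these groups. The median length was 645 nt for the SNAREs with YPT1, 648 nt for the receptors, 2670 nt for COPI and 2631 nt for the COPII group. Across the 28 members density fell with length (Spearman rho -0.78), as it did across all analysed genes (-0.62), where the points share the 2 libraries. The fit of density on coding length over all analysed genes was a line plus a square in log2 length. After its subtraction, the medians of both coat groups lay above those of the others. The COPII group had the highest median at 0.68 (-0.17 to 1.22), which was the value of SEC12. COPI followed at 0.52 (0.21 to 0.83), the SNAREs with YPT1 at 0.20 (-0.31 to 0.65) and the cargo receptors at 0.07 (-0.17 to 0.40). The ranges again overlapped. Within the COPII group, the coat and scaffold proteins ran from 0.03 to 1.22, and SAR1, ARF1 and SEC12 from -0.17 to 0.68. The median of all analysed genes on that scale was 0.11, and 23 of 28 members (82.1%) lay above 0, as did 58.4% of the analysed genes and 74.0% of those in the RNA range of the members.

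**Figure D4:**
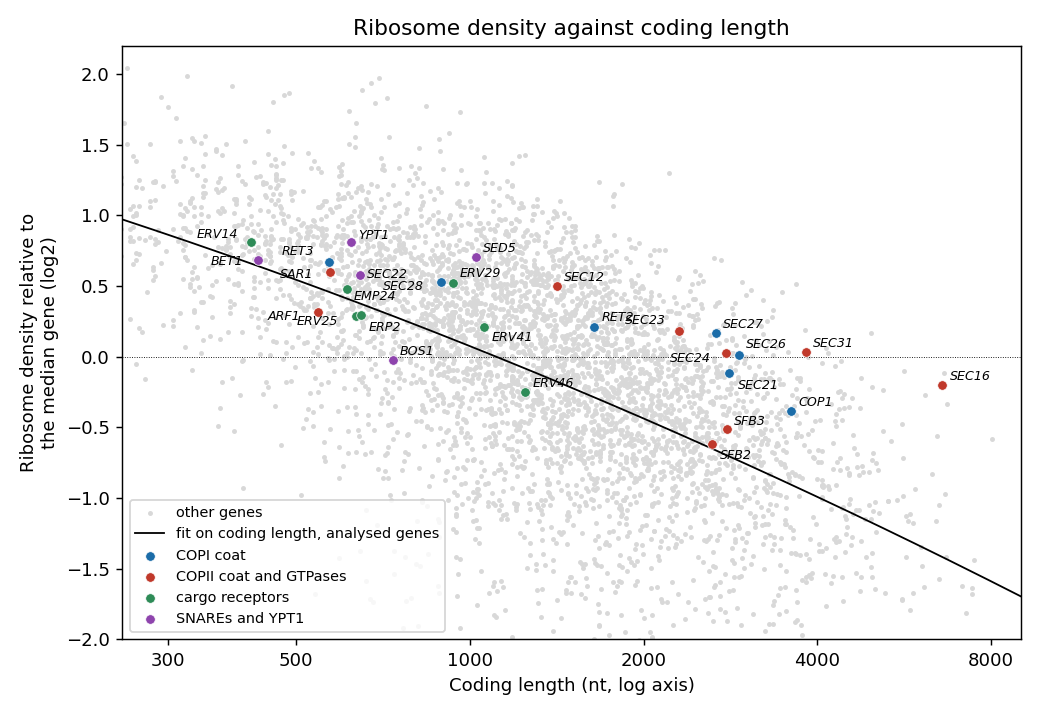
Density relative to the median gene (log2) against coding length (nt, log axis), with the 28 members in colour, part of the other analysed genes in grey (points beyond the axes are not drawn) and the fit over all analysed genes as a line. Density falls with length among the members (Spearman rho -0.78), and all 10 members over 2000 nt lie above the line, SEC16 farthest at 1.22, as do 58.0% of the other genes of that length.

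By their median, the long coat genes had a density near that of the median gene. SFB2 (-0.62), SFB3 (-0.51) and COP1 (-0.39) were the lowest of them. The 10 members over 2000 nt, a limit set after the values were seen, had a median density of -0.05, and 5 of them lay above the median gene. The other 1146 analysed genes over 2000 nt had a median of -0.62, and 13.2% lay above the median gene. Restricted to the RNA range of the members, the other 487 long genes had a median of -0.36, with 23.0% above. The long members had more RNA than these, with a median of 218 RPKM against 80.3 RPKM, and the part of that difference in their density was not tested. All 10 long members had a length-adjusted density above 0, as did 58.0% of the other long genes and 80.3% of those in the members' RNA range, whose median was 0.38. SEC16, the longest member at 6588 nt, had a length-adjusted density of 1.22, above 98.97% of the analysed genes. Its measured density was -0.20 and the fit at its length was -1.42. Since 99.5% of the analysed genes are shorter than SEC16, few genes set the fit there. SEC31 (0.98), SEC27 (0.83), SEC26 (0.75), SEC23 (0.73) and SEC24 (0.72) followed. SFB3 (0.19) and SFB2 (0.03), of like length to SEC24, lay nearer the fit. At the other end, BOS1 (-0.31), ARF1 (-0.17) and ERV46 (-0.17) were the lowest after the adjustment.

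**Figure D5:**
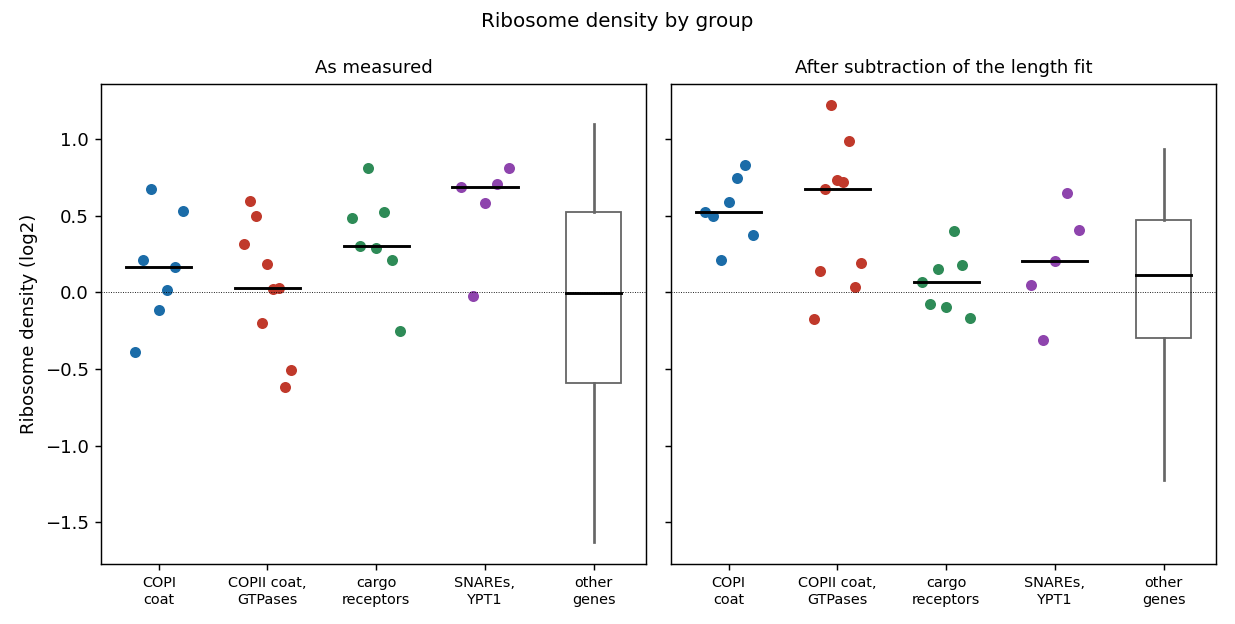
Density (log2) of each member by group, as measured (left) and after subtraction of the fit on coding length (right), with group medians as bars and, for the other analysed genes, a box from the 25th to the 75th percentile with lines from the 5th to the 95th. The COPI and COPII medians of 0.17 and 0.03 become 0.52 and 0.68, and the medians of the receptors and of the SNAREs with YPT1 become 0.07 and 0.20.

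Ribosomes choose a start codon in part by the bases before it, and yeast genes favour A at position -3, counted back from the A of the start codon. Among the 29 genes 22 (75.9%) had A there, as did 61.4% of the analysed genes. By group, it was 6 of 7 COPI subunits, 9 of 10 COPII and GTPase genes, 6 of 7 receptors and 1 of 5 in the group of SNAREs with YPT1. None of the 4 SNARE genes had it. Their densities were 0.71 for SED5, 0.69 for BET1, 0.58 for SEC22 and -0.02 for BOS1. Whether the base at position -3 bears on density was not tested. The start sites of the member with the highest and the lowest density in each group follow, so SED5, BET1 and SEC22 are not among them. The sequences are from assembly R64 on the coding strand, with position -3 and the start codon in capitals.
YPT1: aaaagcactAatATGaat
BOS1: tttgaggggGgaATGgta
ERV14: ataaaaagaAaaATGggt
ERV46: acaatagacAtcATGaaa
RET3: cattgttccAggATGtct
COP1: tactggatcAagATGaag
SAR1: ataattggaAtaATGgct
SFB2: ctgcagtgaAtaATGtct
YPT1 lies at 55366 to 55986 on chromosome VI (minus strand), BOS1 at 285736 to 286559 on XII (minus), ERV14 at 400871 to 401287 on VII (minus) and ERV46 at 61316 to 62563 on I (plus). RET3 lies at 535018 to 535587 on XVI (plus), COP1 at 194571 to 198176 on IV (minus), SAR1 at 138698 to 139409 on XVI (plus) and SFB2 at 535281 to 537911 on XIV (minus). In 3 of the 4 groups both extremes had A at position -3, and BOS1 had G. The match is a description of these letters and not a measure of start site use.

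Introns were frequent among the transport genes. SEC27, SAR1, ERV41, BET1 and BOS1, 5 of 29 (17.2%), have an intron in the annotated coding region, as do 3.75% of the analysed genes. Their densities ran from -0.02 to 0.69 with a median of 0.21, inside the range of the 23 listed members without an intron, whose median was 0.29.

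Of 45 other genes of the same pathway, chosen by known role, 43 were listed and analysed. They were less abundant than the members, with a median of 64.7 RPKM of footprints and 72.6 RPKM of RNA. Their median density was 0.27, and 26 of 43 lay above the median gene, where 50.0% of the analysed genes do. Of the 43, 1 was more than 2-fold above it and 2 more than 2-fold below, against 6.79% and 13.1% of the analysed genes. The highest were GOS1, a Golgi SNARE (1.08), BUG1, a tether of the early Golgi (0.997), and SEC13 (0.96). The lowest were TRS120, a subunit of the TRAPP II tether (-1.55), GEA1, an exchange factor for Arf (-1.08), and TRS130, also of TRAPP II (-0.92). These 3 genes are long, at 3870, 4227 and 3309 nt, and their length-adjusted densities were -0.58, -0.04 and -0.09. GOS1, BUG1 and SEC13 are shorter, at 672, 1026 and 894 nt, and had 0.73, 0.94 and 0.81 on that scale. The 9 TRAPP genes as a list had a median of -0.06 with 12.04 to 102 RPKM of footprints, and the 3 Dsl1 tether genes had a median of -0.10 with 23.0 to 31.0 RPKM. These tethers were thus scarcer in footprints than each of the 7 COPI subunits, which had 149 to 357 RPKM. After subtraction of the length fit, the median density was -0.09 for the TRAPP genes and 0.38 for the Dsl1 genes.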

How the data were processed

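The authors deposited 1 table with RPKM values per gene for the footprint and the RNA library, and a log2 ratio of the RPKM values, which differed from the ratio recomputed here by at most 1.63e-09. Per the file headers, genes were kept with at least 10 RPM of RNA and more than 0 RPM of footprints. Reads were assigned to build sacCer3, per the submitters' processing notes. The sources used here do not name the aligner or counting rule. Locus tags were matched to the NCBI annotation of R64, the same assembly, for 4684 of 4685 genes with a coding sequence, and the other took its gene span. Density was log2 of footprint over RNA with no pseudocount, centred on the median of genes with a mean of at least 5 RPKM. The length fit was tested on simulated data with a straight-line length slope, small noise and a known shift of randomly chosen genes. That test held no curve in length and did not cover the medians of the member groups. Codon adaptation used weights from 132 ribosomal protein genes with 0.5 added to each count. Analyses used Python 3.11.15 with numpy 2.4.6, pandas 2.3.3 and scipy 1.17.1. All 29 members were named. Other pathway genes named are SEC13, ERP1 and the 3 highest and 3 lowest in density. The members and lists were chosen by function, with earlier results of these data known. Alternatives were other filters, a pseudocount, another centring, the length fit, and leaving out genes.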

Additional observations from a re-analysis of the deposited data

How the results depend on the processing

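No paired analysis was possible because there is 1 library per assay, and no replicate could be left out. With no replicate spread, a log2 value or correlation was taken as stable if it kept its sign and stayed within 0.2. A count was taken as stable within 1.5 times. Of 81 alternative values 63 were stable by this rule. Some of the 63 could not change, since all listed members passed every filter tried and centring cancels in differences between groups. The count of members above the median gene fell from 21 to 16 with the filter of 20 RPKM and was still called stable. Centring on total footprint over total RNA turned the median density to -0.13 for the members, -0.21 for COPI, -0.35 for the COPII group, -0.079 for the cargo receptors and -0.11 for the other pathway genes, lowered the SNAREs with YPT1 to 0.31, and left 11 of 28 members above 0. Centring on genes with a mean of at least 20 RPKM turned COPI to -0.015 and the COPII group to -0.15. With the GTPases and SEC12 left out, the COPII median was -0.088. Subtracting the length fit gave 0.52 for COPI, 0.68 for the COPII group, 0.070 for the receptors and 0.20 for the SNAREs with YPT1, so that the difference from COPI was -0.45 for the receptors (0.13 as measured), -0.32 for the SNAREs with YPT1 (0.52 as measured) and 0.16 for the COPII group (-0.14 as measured). It also put 1 member, SEC16, more than 2-fold above 0. No other alternative tried brought a member past 2-fold. The SD of COPI footprints without RET3 and the SD of member density without ARF1 (0.40) were chosen after seeing the data. Another centring moves every density by the same amount, by construction. Why the groups moved as they did after the length fit was subtracted was not tested. The depth is unknown and limits every value.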
